A study of Mus musculus with 6 samples.

Results

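Transcripts of 7 receptors of the neurotrophin and GDNF families were compared between dorsal root ganglia of mice with renal ischemia-reperfusion and of sham-operated mice. Dorsal root ganglia house the cell bodies of the sensory neurons and lie alongside the spinal cord. The receptors were chosen by gene name, as Ntrk2, Ntrk3, Ngfr, Ret, Gfra1, Gfra2 and Gfra3, and all 7 were found among the 57180 genes of the table. The I/R group held 3 wild-type mice whose left renal pedicle, the stalk of vessels and nerves, was clamped for 28 min and released, and whose right kidney was removed. The sham group held 3 wild-type mice that, per the labels, had the same operation without the clamp, though the labels do not say separately that their right kidney was taken out. Both groups were anesthetized with Zoletil, and ganglia from thoracic level 8 to lumbar level 2 were collected 24 h after surgery. The sources used here give no strain, sex or age, and do not say whether ganglia were pooled within a mouse. The series asks how sensory ganglia change after renal I/R.

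Neurotrophins and the GDNF family are secreted growth factors on which sensory neurons depend for survival in development and for their properties in the adult. Neurotrophins act through Trk receptor tyrosine kinases, among them TrkB (Ntrk2, the receptor of BDNF) and TrkC (Ntrk3, the receptor of neurotrophin 3), and all of them also bind the shared receptor p75NTR (Ngfr). GDNF, neurturin and artemin bind GFRα1, GFRα2 and GFRα3, membrane-anchored co-receptors with no kinase of their own (Gfra1, Gfra2, Gfra3), and each complex signals through the kinase RET (Ret). In sensory ganglia Ntrk3 is best known from large proprioceptive neurons, Ntrk2 from touch neurons and, in a form without the kinase, from glia, Ret and Gfra2 from non-peptidergic nociceptors, and Gfra3 from peptidergic nociceptors.

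The libraries held 20234079 to 22010227 expected counts in I/R mice and 19092650 to 20390927 in sham mice. Of 10 genes known from injured sensory neurons, all 10 rose in I/R ganglia in edgeR's quasi-likelihood test, with the injury-induced transcription factor Atf3 at 126.5 ± 15.5 CPM in I/R and 9.17 ± 0.788 CPM in sham ganglia (SD, n = 3 each). CPM is the count scaled to library size. In all, 188 of 16346 tested genes were called at an adjusted p under 0.05, or 1.15%, and for 17.1% the ranges of the groups did not overlap. Neurons were well represented, with 12950 to 15670 CPM summed over 11 genes of large-diameter neurons in I/R libraries and 14610 to 15630 CPM in sham libraries. Skeletal muscle genes, summed, stood at 5.24 to 12.9 CPM in the I/R libraries, and at 559.9, 14.9 and 286.1 CPM in sham 1 to 3, so sham 1 and sham 3 stood apart and each receptor was also fitted against sham 2 alone.

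None of the 7 receptor genes was called, against 1.15% of all genes tested, and the receptors moved by small amounts beside the injury genes. Gfra1 stood highest, with a log2 fold change of 0.40 ± 0.09 (SE), and Gfra2 lowest, with -0.29 ± 0.10. At an unadjusted p under 0.05 there were 2 of the 7, Gfra1 and Gfra2, against 10.5% of all genes, and the same 2 had groups that did not overlap, against 17.1%. The median log2 fold change of the 7 was 0.08, with 5 above 0 and 2 below, beside a median of 0.00 over all genes tested, and their median absolute change was 0.14 beside 0.13. The 95% intervals of this fit, unadjusted and each for 1 gene, reached at most 1.52-fold higher for Gfra1 and 1.43-fold lower for Gfra2. They do not bound the 7 genes jointly. With the muscle level as a covariate the SE was larger, 0.174 for both Gfra1 and Gfra2, beside 0.091 and 0.099 here. Limma-voom called none of the 7, and DESeq2 called Gfra1.

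**Figure D1:**
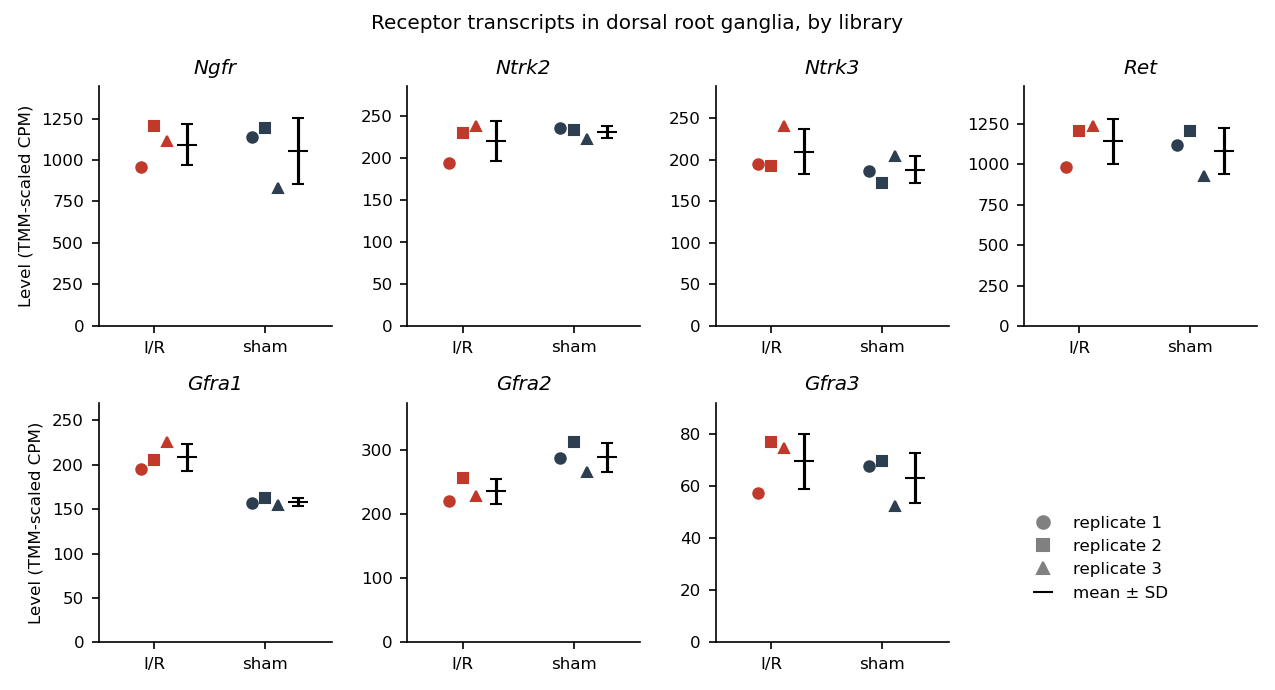
Level of each receptor transcript in TMM-scaled CPM (vertical axes start at 0) in the 3 I/R and 3 sham libraries, with the mean and SD of each group in black. Only Gfra1, higher in I/R, and Gfra2, lower in I/R, show groups that do not overlap, and neither was called in edgeR's test.

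Among the kinase receptors of neurotrophins, Ntrk2, which encodes TrkB, had 193.5, 229.2 and 238.0 CPM in I/R 1 to 3 and 236.1, 233.1 and 222.7 CPM in sham 1 to 3. The groups overlapped, and I/R 1 was the lowest library of the 6. The log2 fold change was -0.07 ± 0.10, with a 95% interval of -0.29 to 0.16 (adjusted p = 0.86 in edgeR's test). It was 0.02 without I/R 1. Full-length TrkB and the form without the kinase come from the same gene, and values per gene do not separate them.

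Ntrk3, which encodes TrkC, had 195.3, 192.1 and 240.5 CPM in I/R 1 to 3 and 186.2, 172.5 and 204.8 CPM in sham 1 to 3. I/R 3 was the highest library, and the other values of both groups lay between 172.5 and 204.8 CPM. The log2 fold change was 0.16 ± 0.11, with an interval of -0.10 to 0.41 (adjusted p = 0.692 in edgeR's test). It was 0.05 without I/R 3, 0.10 without sham 2 and 0.25 against sham 2 alone. Large-diameter neuron genes, a class that Ntrk3 marks, had 8 of 11 members above 0 and a median of 0.03. EdgeR called none and gave 0 an unadjusted p under 0.05, against 1.15% and 10.5% of all genes tested.

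Ngfr, which encodes p75NTR, had 959.1, 1205 and 1115 CPM in I/R 1 to 3 and 1141, 1192 and 829.7 CPM in sham 1 to 3. The lowest value was in sham 3 and the next in I/R 1, and the groups overlapped. The log2 fold change was 0.05 ± 0.14, with an interval of -0.27 to 0.37 (adjusted p = 0.926 in edgeR's test). Its sign turned with the libraries used, to -0.09 without sham 3 and -0.15 against sham 2 alone. Of 10 myelinating Schwann cell genes, edgeR called none, and 3 had an unadjusted p under 0.05, against 1.15% and 10.5% of all genes tested. The 10 summed to 5920 to 6641 CPM in I/R libraries and 6929 to 7219 CPM in sham libraries. Ngfr, which is also made by Schwann cells, did not follow that order. In bulk tissue, fewer cells of a type and less RNA per cell cannot be told apart.

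Ret, the kinase shared by the GDNF family co-receptors, had 980.8, 1207 and 1237 CPM in I/R 1 to 3 and 1121, 1205 and 925.7 CPM in sham 1 to 3. As for Ngfr, sham 3 and I/R 1 were the lowest libraries and the groups overlapped. The log2 fold change was 0.08 ± 0.12, with an interval of -0.20 to 0.35 (adjusted p = 0.876 in edgeR's test), and it was -0.03 without sham 3 and -0.10 against sham 2 alone.

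Gfra1, the co-receptor of GDNF, had 195.2, 204.8 and 225.0 CPM in I/R 1 to 3 and 156.5, 162.9 and 154.5 CPM in sham 1 to 3. Each I/R library lay above each sham library, and the lowest I/R value, 195.2 CPM, was farther from the highest sham value, 162.9 CPM, than the values of either group were from each other. The fitted level was 31.9% higher in I/R, a log2 fold change of 0.40 ± 0.09 with an interval of 0.20 to 0.60 (adjusted p = 0.0839 in edgeR's test). The adjusted p was 0.0194 in DESeq2, 0.0466 in edgeR without the filter on low counts and 0.0243 in edgeR with a correction for GC content added after seeing the data, and it lay between 0.0768 and 1 under the other 14 alternatives. Against sham 2 alone the value was 0.33, in a fit with 1 sham library whose p rests on the spread among the I/R libraries. In rats, cutting a peripheral nerve is known to raise Gfra1 and to lower Gfra2 in sensory ganglia. That background is given for Gfra1 and Gfra2 only, the receptors whose groups did not overlap here, and is not an account of the whole family. Gfra3 had a log2 fold change of 0.14 ± 0.14 here and was not called. A shared cause with the values here was not tested.

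Gfra2, the co-receptor of neurturin, stood the other way, with 221.6, 257.1 and 228.5 CPM in I/R 1 to 3 and 288.4, 312.2 and 266.6 CPM in sham 1 to 3. Each I/R library lay below each sham library, but the nearest of them, I/R 2 and sham 3, were 257.1 and 266.6 CPM. The fitted log2 fold change was -0.29 ± 0.10, with an interval of -0.52 to -0.07 (adjusted p = 0.29 in edgeR's test), and it was -0.43 against sham 2 alone. Of 10 genes of non-peptidergic nociceptors, cells that carry Gfra2, 8 lay below 0 with a median of -0.25. None was called by edgeR and 4 had an unadjusted p under 0.05, against 1.15% and 10.5% of all genes tested. The sum of the 10 was 1436 to 1815 CPM in I/R libraries and 1737 to 1951 CPM in sham libraries. Genes of C low-threshold mechanoreceptors, touch neurons that also carry Gfra2, had 4 of 6 members below 0 and a median of -0.11. The part of either neuron class in the values of Gfra2 was not tested.

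Gfra3, the co-receptor of artemin, had 57.4, 76.7 and 74.5 CPM in I/R 1 to 3 and 67.5, 69.4 and 52.2 CPM in sham 1 to 3. Again sham 3 and I/R 1 were lowest and the groups overlapped. The log2 fold change was 0.14 ± 0.14, with an interval of -0.18 to 0.46 (adjusted p = 0.788 in edgeR's test). It was 0.26 without I/R 1, 0.05 without I/R 2, 0.02 without sham 3 and -0.02 against sham 2 alone, and each of the 6 fits that left out 1 library gave a value above 0. Peptidergic nociceptors carry Gfra3. Among 10 genes listed for them, not all restricted to these cells, 6 lay above 0 and 4 below, with a median of 0.03. Adcyap1, the gene of the peptide PACAP, rose in edgeR's test (0.61 ± 0.09) and was the only member called, against 1.15% of all genes tested. Calcb went the other way without a call (-0.40 ± 0.11, adjusted p = 0.151 in edgeR's test), each I/R value lying below each sham value. Groups did not overlap for these 2 of the 10, against 17.1% of all genes tested. Adcyap1 lost its call without I/R 2, sham 1 or sham 2 (adjusted p 0.0515 to 0.0992 in edgeR's test), with the replicate block (0.0762), against sham 2 alone (0.224) and with the muscle level as covariate (0.414), while its log2 fold change lay between 0.57 and 0.68 under all 17 alternatives.

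**Figure D2:**
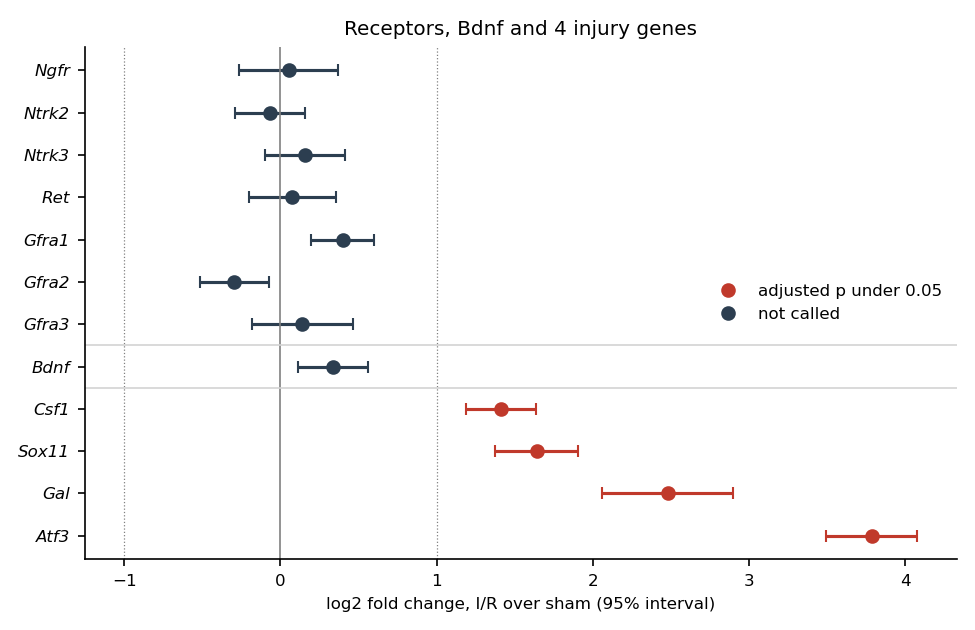
Log2 fold change of I/R over sham with its 95% interval for the 7 receptors, for the ligand gene Bdnf and for 4 genes known from injured sensory neurons, with dotted lines at a 2-fold difference. The receptor intervals lie between -0.52 and 0.60, and Csf1, the injury gene shown with the smallest change, stands at 1.41.

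The balance of co-receptors was also read within each library, where scaling between libraries cancels. Gfra1 gave 0.881, 0.796 and 0.985 reads per Gfra2 read in I/R 1 to 3 and 0.543, 0.522 and 0.580 in sham 1 to 3. The groups were well apart, with means of 0.887 ± 0.0943 in I/R and 0.548 ± 0.0293 in sham (SD, n = 3 each), a difference of 0.69 on the log2 scale. Per Ret read, Gfra1 gave 0.184 ± 0.0148 reads in I/R and 0.147 ± 0.0172 in sham, and Gfra2 gave 0.208 ± 0.0211 in I/R and 0.268 ± 0.0172 in sham. These 3 ratios did not overlap between groups, and each had p = 0.10 in a two-sided exact permutation test, the smallest p that 3 against 3 allows, and 0.20 adjusted over 6 ratios. Gfra3 per Ret read was nearly level, at 0.0607 ± 0.00253 in I/R and 0.0581 ± 0.00195 in sham (exact permutation p = 0.30). Ngfr per Ntrk2 read was 4.97 ± 0.286 in I/R and 4.56 ± 0.734 in sham (exact permutation p = 0.60), and Ntrk3 per Ntrk2 read was 0.953 ± 0.0991 in I/R and 0.816 ± 0.0928 in sham (exact permutation p = 0.20). The ratios were chosen after the values were seen, and a ratio shows unequal change without saying which gene moved. Gfra1 already lay above and Gfra2 below in every I/R library, so their ratio had to separate the groups. Its p is therefore no further test of either gene.

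**Figure D3:**
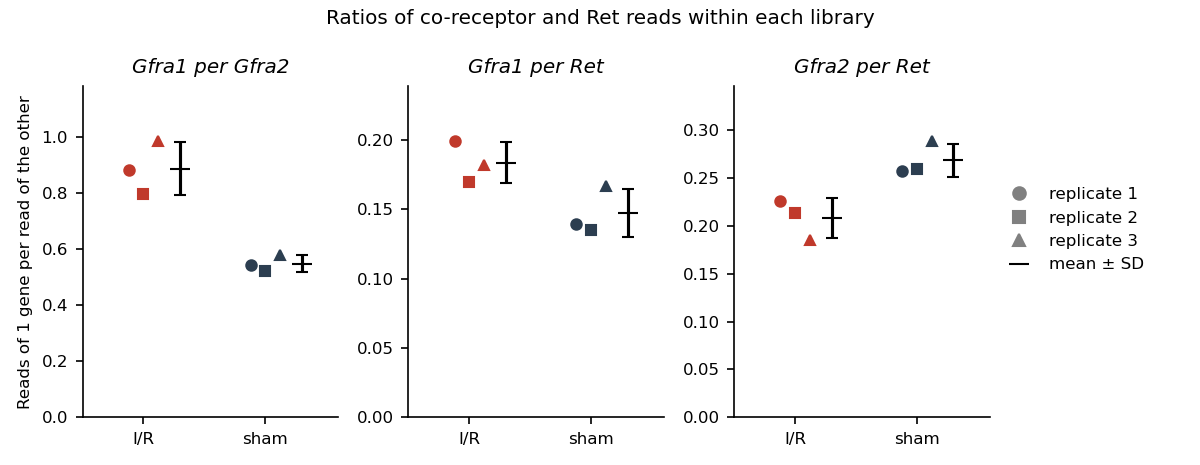
Reads of Gfra1 per read of Gfra2, of Gfra1 per read of Ret and of Gfra2 per read of Ret within each of the 3 I/R and 3 sham libraries (axes start at 0), with the mean and SD of each group in black. Gfra1 per Gfra2 lies between 0.796 and 0.985 in I/R and between 0.522 and 0.580 in sham.

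Levels of different genes were compared per transcript length, as TPM, a count scaled to transcript length and library size, computed with the length that the authors deposited for each gene. Ngfr was highest, at 818 ± 126 TPM in I/R and 782 ± 168 TPM in sham, and Ret followed with 540 ± 93.1 TPM in I/R and 507 ± 82.2 TPM in sham. Their ranges overlapped, but Ngfr was above Ret in 6 of 6 libraries. Gfra2 stood at 175 ± 18.7 TPM in I/R and 212 ± 23.2 TPM in sham, and Ntrk3 at 195 ± 34.7 TPM in I/R and 172 ± 9.46 TPM in sham. Over all 6 libraries the ranges of these neighbours overlapped, with Gfra2 above Ntrk3 in 4 of 6. In sham libraries Gfra2, at 188.3 to 234.5 TPM, lay above Ntrk3, at 162.2 to 181 TPM. In I/R libraries their ranges overlapped, at 154.6 to 191.6 TPM for Gfra2 and 170.5 to 234.4 TPM for Ntrk3. Gfra1 stood at 116 ± 14.7 TPM in I/R and 86.7 ± 4.95 TPM in sham, Gfra3 at 89.9 ± 17.6 TPM in I/R and 80.6 ± 14.4 TPM in sham, and Ntrk2 at 65.0 ± 10.3 TPM in I/R and 67.2 ± 4.11 TPM in sham, with ranges that overlapped from each to the next. Ret and Gfra2, and Ntrk3 and Gfra1, were the neighbours whose ranges over all 6 libraries did not overlap.

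The place of Ntrk3 in that order rests on its length. The authors deposited 2774 bases for Ntrk3, while its longest transcript in the GENCODE M21 annotation has 19703 bases, and for the other 6 genes the deposited length equals that longest transcript. With the longest transcript the level of Ntrk3 was 10.6 CPM per kilobase in I/R and 9.53 in sham, the lowest of the 7, against 75.5 in I/R and 67.7 in sham with the deposited length. As shares of the summed TPM of the 7 receptors, Gfra1 took 5.81% in I/R and 4.59% in sham and Gfra2 took 8.79% in I/R and 11.2% in sham, while Ngfr took 40.9% in I/R and 40.7% in sham.

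**Figure D4:**
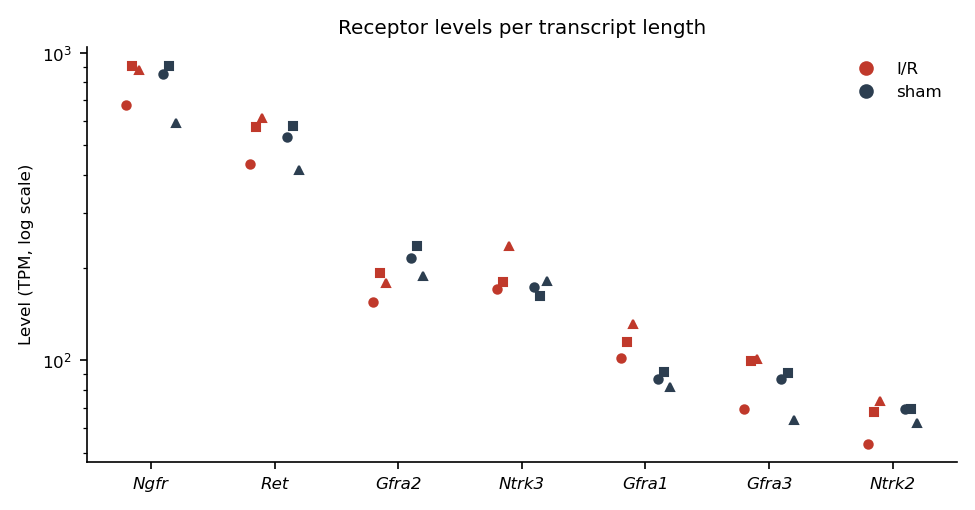
Level of each receptor in TPM (log scale, with the deposited gene lengths) in the I/R and sham libraries, one symbol per library. The order runs from Ngfr and Ret down to Ntrk2, and I/R 1 and sham 3 are the lowest library of their group for Ngfr, Ret and Gfra3.

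Ngfr, Ret and Gfra3 varied together across the 6 libraries, with a Pearson r of log2 CPM of 0.935 for Ngfr and Ret, 0.938 for Ngfr and Gfra3 and 0.977 for Ret and Gfra3. These correlations are a description over 6 libraries that share their depth scaling. All 3 genes were low in sham 3 and I/R 1, and Ntrk3 had r of -0.261 with Ngfr. Base composition differed between libraries as well. Genes with over 55.5% GC stood, at the median, 0.271 lower than genes with under 43.8% GC in sham 3 on the log2 scale, 0.216 lower in I/R 3 and 0.02 lower in I/R 1, while in sham 2 it stood 0.231 higher. Ngfr and Gfra3 have GC-rich transcripts (58.6% and 57.1% in GENCODE M21), while Ret, which varied with them, has 51.4%. Gfra2 has 53.3%, Gfra1 49.7%, Ntrk2 48.6% and Ntrk3 43.6%. The part of base composition in the shared variation was not tested. With the GC correction the log2 fold changes were 0.09 for Ngfr, 0.09 for Ret and 0.18 for Gfra3, none called by edgeR.

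By a rule of likeness, the pair of genes whose log2 CPM followed each receptor most closely over the 6 libraries was sought among 13525 genes. For Gfra1 they were Abca1, a cholesterol exporter, and Slc11a2, an iron transporter (Pearson r of 0.9985 and 0.9971). Abca1 rose in edgeR's test, with a log2 fold change of 0.75 ± 0.11 (adjusted p = 0.00968), and lost its call without I/R 2 or sham 1 (0.0634 and 0.0636), with the replicate block (0.0803), against sham 2 alone (0.375) and with the muscle level as covariate (0.521), while its value lay between 0.65 and 0.83 under all 17 alternatives. For Gfra2 they were Col11a1 and Hif1an (0.9936 and 0.9923), for Gfra3 Rassf5 and Samd4b (0.9977 and 0.9964) and for Ret Pom121 and Ubr4 (0.9983 and 0.9977). For Ngfr they were Dnm1 and Nacad (0.9987 and 0.9982), for Ntrk2 Htr4 and Bach2 (0.9936 and 0.9896) and for Ntrk3 Braf and Galnt1 (0.9964 and 0.9938). With 6 points and that many genes compared, such values are a description only.

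Promoter sequence was available for 3 of the 7 genes, and the windows of Gfra1, the receptor with the smallest p, and of Ngfr, the most abundant receptor and one with no difference called, are shown for comparison. Each runs from 250 bases before to 50 bases after the RefSeq start in build GRCm38.p6, 5′ to 3′ on the gene's own strand, and capitals mark each match to the GC box GGGCGG on either strand. The window of Gfra1 is chr19:58455349-58455648 and that of Ngfr is chr11:95587649-95587948, both on the minus strand.
Gfra1: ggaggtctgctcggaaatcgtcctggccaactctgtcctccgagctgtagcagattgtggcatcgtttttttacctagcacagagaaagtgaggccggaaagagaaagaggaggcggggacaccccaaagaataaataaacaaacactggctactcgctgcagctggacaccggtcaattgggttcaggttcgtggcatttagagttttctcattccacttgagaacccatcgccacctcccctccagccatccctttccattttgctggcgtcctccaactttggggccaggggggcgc
Ngfr: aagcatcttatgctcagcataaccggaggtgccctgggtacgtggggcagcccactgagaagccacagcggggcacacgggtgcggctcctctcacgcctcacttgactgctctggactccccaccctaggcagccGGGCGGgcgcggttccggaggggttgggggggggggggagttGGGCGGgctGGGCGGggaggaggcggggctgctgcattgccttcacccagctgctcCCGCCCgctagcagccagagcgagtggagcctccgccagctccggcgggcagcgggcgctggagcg
The Ngfr window held 4 GC boxes and the Gfra1 window 0, and 35.7% of all 32851 promoter windows held at least 1. The AP-1 motif TGANTCA, which is in 7.81% of all windows, and the CRE motif TGACGTCA, which is in 1.79%, were in neither of them on either strand. The GC content was 54.0% for Gfra1 and 71.7% for Ngfr. A match or its lack describes these letters only.

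Most ligand genes were near the limit of detection in the ganglia, and Bdnf was the exception. Bdnf, which encodes the ligand of TrkB, had 25.8, 25.9 and 23.6 CPM in I/R 1 to 3 and 20.2, 19.1 and 20.3 CPM in sham 1 to 3. Each I/R library lay above each sham library, and groups did not overlap for 17.1% of all genes tested. The log2 fold change was 0.34 ± 0.10 (adjusted p = 0.219 in edgeR's test), so Bdnf was not called. Its value was 0.37 against sham 2 alone. Ntf3, which encodes neurotrophin 3, had 0.528 ± 0.100 CPM in I/R and 0.505 ± 0.213 CPM in sham (SD, n = 3 each). Ntf3 was tested and not called (adjusted p = 0.969 in edgeR's test).

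The ligand genes of the GDNF family fell under the filter on low counts and were not tested. Gdnf had 2, 7 and 2 counts in I/R 1 to 3 and 6, 4 and 0 counts in sham 1 to 3. Nrtn, the neurturin gene, had 9, 6 and 4 counts in I/R 1 to 3 and 10, 6 and 3 counts in sham 1 to 3. Artn, the artemin gene, had 4, 3 and 3 counts in I/R 1 to 3 and 2, 3 and 4 counts in sham 1 to 3. Pspn, the persephin gene, and Ntf5, the gene of neurotrophin 4, had 0 to 2 counts in every library. A count of 0 allows up to 3 counts, or 0.137 to 0.154 CPM in these libraries, and counts this low leave wide room for differences that were not measured. Of 7 ligand genes 2 were tested, and edgeR, DESeq2 and limma-voom each called 0, where edgeR called 1.15% of all genes tested. Bdnf alone had an unadjusted p under 0.05 in edgeR, against 10.5% of all genes tested.

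Among co-receptors and partners no gene was called, where edgeR called 1.15% of all genes tested. Of 18 genes 17 were tested, and edgeR, DESeq2 and limma-voom each called 0. EdgeR gave 1 an unadjusted p under 0.05, against 10.5% of all genes tested. The median log2 fold change of the list was -0.03, with 5 above 0 and 12 below. Gfra4, the persephin co-receptor, stood at 10.4 ± 1.64 CPM in I/R and 11.1 ± 1.47 CPM in sham, and Gfral, the receptor of GDF15 in the brainstem, had 0 counts in all 6 libraries. The members of smallest p were Tnfrsf19, a receptor that can pair with the Nogo receptor (-0.39 ± 0.16, adjusted p = 0.423 in edgeR's test), Sorcs2, a sortilin-family partner of p75NTR (-0.25 ± 0.11), and Sdc3, a proteoglycan that binds GDNF (0.17 ± 0.13).

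Of 42 adaptors and signal transducers downstream of the receptors, all tested, edgeR, DESeq2 and limma-voom each called 0. EdgeR gave 3 an unadjusted p under 0.05, and of all genes tested it called 1.15% and gave 10.5% such a p. The median of the list was 0.07, with 29 above 0 and 13 below. Shc1, an adaptor that binds phosphorylated Trk and RET, stood at 159.9 ± 7.81 CPM in I/R and 203 ± 18.7 CPM in sham. Each I/R value of Shc1 lay below each sham value, with a log2 fold change of -0.35 ± 0.10 (adjusted p = 0.183 in edgeR's test). Groups did not overlap for 8 of the 42, against 17.1% of all genes tested. Shc4, a related adaptor, had -0.24 ± 0.10 and Dok6, a docking protein that binds RET and TrkC, had 0.36 ± 0.14, with adjusted p of 0.428 and 0.394 in edgeR's test.

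Of 18 feedback regulators and target genes of these pathways, edgeR and limma-voom called 0 and DESeq2 1, and the median was 0.00. EdgeR gave 2 of the 18 an unadjusted p under 0.05, and of all genes tested it called 1.15% and gave 10.5% such a p. Spry4, an inhibitor of receptor kinase signalling, had 22.4, 26.6 and 27.4 CPM in I/R 1 to 3 and 32.5, 37.9 and 33.4 CPM in sham 1 to 3. Each I/R value lay below each sham value, with a log2 fold change of -0.44 ± 0.12 (adjusted p = 0.141 in edgeR's test). Groups did not overlap for 1 of the 18, Spry4, against 17.1% of all genes tested. Vgf, a secreted peptide precursor induced by neurotrophins, had 248.8, 216.1 and 131.5 CPM in I/R 1 to 3 and 139.9, 128.4 and 116.5 CPM in sham 1 to 3. I/R 1 and I/R 2 were high and I/R 3 lay within the sham range, and the log2 fold change was 0.63 ± 0.20 (adjusted p = 0.241 in edgeR's test, 0.0199 without I/R 3 and 0.0436 in DESeq2). Dusp4, a MAP kinase phosphatase, had -0.29 ± 0.15 (adjusted p = 0.567 in edgeR's test).

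**Figure D5:**
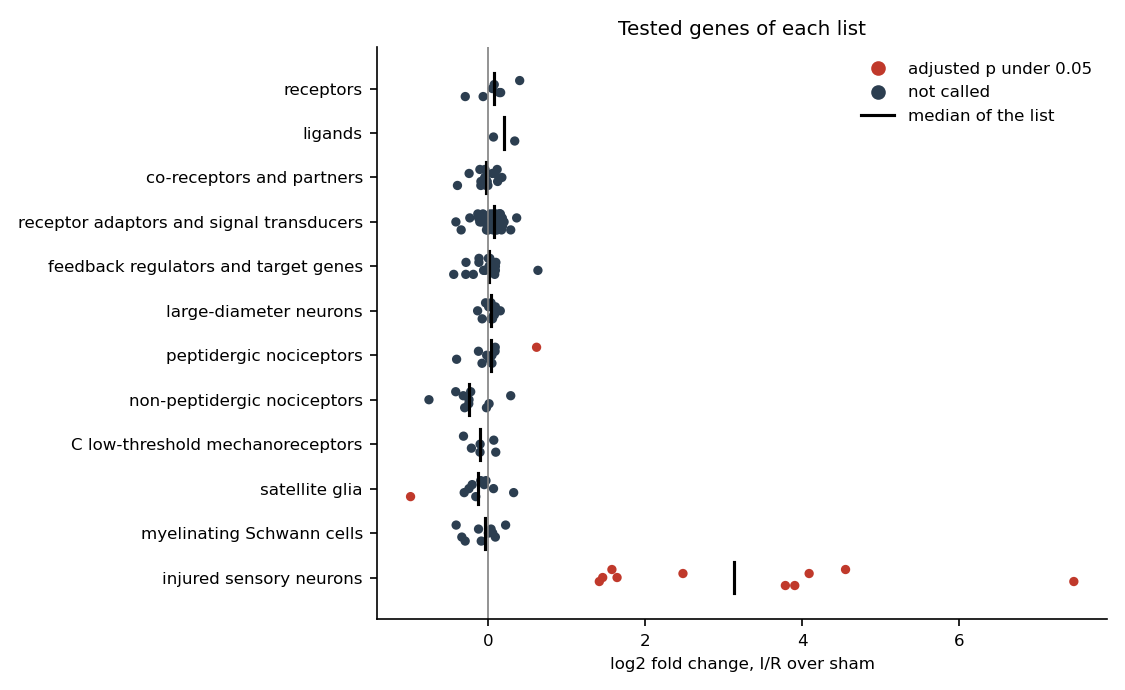
Log2 fold change of I/R over sham for each tested gene (points) and the median (black bar) of the receptors, the 4 pathway lists, 4 classes of sensory neuron, 2 glial types and genes known from injured sensory neurons. The medians lie between -0.25 and 0.20 for all lists but the injury genes, whose median is 3.13.

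Glial and other cell types moved in part with the groups. Of 10 satellite glia genes, 1 was called, against 1.15% of all genes tested. It was Fabp7, a fatty acid binding protein, which fell (-0.99 ± 0.16, adjusted p = 0.0187 in edgeR's test). The list went both ways, with 2 members above 0 and 8 below. Groups did not overlap for 5 of the 10, against 17.1% of all genes tested. One of these, Glul, stood higher in each I/R library than in each sham library without a call (0.32 ± 0.09, adjusted p = 0.152 in edgeR's test). The list's sum was 3458 to 4244 CPM in I/R libraries and 4133 to 4421 CPM in sham libraries. Fabp7 lost its call without I/R 2, I/R 3 or sham 1 (adjusted p 0.068 to 0.127 in edgeR's test) and with the replicate block (0.203). It also did so against sham 2 alone, where its value was -0.72 (0.287), and with the muscle level as covariate, where it was -0.70 (0.846). Repair and non-myelinating Schwann cell genes, from a list that holds Gdnf and Artn, had 7 tested members and a median of 0.11. EdgeR called none of the 7 and gave 1 an unadjusted p under 0.05, against 1.15% and 10.5% of all genes tested. Of 12 fibroblast and meningeal genes, 9 were called lower in edgeR's test, against 1.15% of all genes called in either direction. The 12 summed to 554.9 to 673 CPM in I/R libraries and 1009 to 1223 CPM in sham libraries. All 5 red cell genes were called lower too, with a sum of 52.8 to 86.6 CPM in I/R libraries and 181 to 271 CPM in sham libraries. Macrophage genes summed to 62.5 to 63.6 CPM in I/R libraries and 48.9 to 52.3 CPM in sham libraries, with 9 of 10 above 0. An unadjusted p under 0.05 was found for 4 of the 10, against 10.5% of all genes tested. Cd163, a hemoglobin scavenger receptor, was the 1 macrophage gene called higher by edgeR (1.01 ± 0.20, adjusted p = 0.0461). It lost the call in each of the 6 fits that left out 1 library (adjusted p 0.0755 to 0.159 in edgeR's test). The part of these cell types in the receptor values was not tested.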

How the data were processed

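Dorsal root ganglia of 6 mice, 3 per group, were sequenced as 1 RNA library per mouse. Per the labels' protocols, TRIzol was used for extraction and a stranded mRNA kit of Illumina for the libraries. Fastp, HISAT2, StringTie and GRCm39 are listed in the submitters' processing notes without role or version. The sources used here do not give the counting program, its strand setting or the annotation release. The authors deposited expected counts per gene, not scaled to library size, of which 10.7% to 11.5% per library were not whole. They were rounded before testing, although the design had assumed whole counts. The authors also deposited the length of each gene in bases, and their 2 columns of group means were not used. Gene symbols came from the table, and rows without one held 0.0552% to 0.0726% of counts and were kept as genes. Library totals were 19092650 to 22010227, and floors cover only counting error, as the reads carry no molecular identifiers and are not independent molecules. Replicates of a group differed by more than sampling noise (chi-square per degree of freedom 4.05 to 27.9).

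All genes were fitted in edgeR 4.0.16 (R 4.3.3) with TMM, the package's filter on low counts, the quasi-likelihood test and Benjamini-Hochberg adjustment over 16346 genes. SE is the size of the log2 fold change divided by the square root of F, and intervals are 95% and unadjusted. TPM was computed from rounded counts and the deposited lengths. Likeness was the Pearson r of log2 of CPM plus 0.5, over genes averaging 1 CPM or more, without predicted genes. Alternatives tried were normalization by RLE or upper quartile, no filter, a CPM of at least 1 in 3 libraries, DESeq2 1.42.0, limma-voom (limma 3.58.1), robust dispersion, the replicate block, leaving out each library, sham 2 alone, and the muscle level as a covariate. A GC correction, a per-library trend on transcript GC (98.3% of tested genes had a value), was added after seeing the data. Fits were tested on simulated data.

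The receptors and gene lists were chosen with earlier results of these data known. The text names all 7 receptors, the ligands, from each other pathway list every called member and the 3 of smallest p, called marker genes needed beside a receptor, and the 2 genes most like each receptor. Gfra4, Gfral, Calcb, Glul and the injury genes plotted fall outside this rule and were picked with their values in view. A gene that the rule takes is not reported here and was left out of its list. Promoters came from RefSeq (GRCm38.p6), and transcript lengths and GC from GENCODE M21, matched by symbol or gene ID. Since the files' assembly is GRCm39, no other coordinates are given.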

Additional observations from a re-analysis of the deposited data

How the results depend on the processing

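Of 560 values recomputed for 33 results under 17 alternatives, 497 were scored as unchanged. For a fold change this meant the same direction and the same side of the threshold. For a count it meant equal or close to the main count, so that 134 and 258 called genes passed beside 188. The count of called genes, 188, was 494 without the filter on low counts, 312 in DESeq2, 32 with sham 2 alone, 27 with a covariate for muscle level, and 87 to 181 without 1 library. The count of called receptors, 0, was 1 without the filter, in DESeq2 and with the GC correction, each time Gfra1 (log2 fold changes 0.395, 0.392 and 0.404), and the count of called feedback and target genes was 1 without the filter and in DESeq2 and 0 to 1 without 1 library. Small differences turned their sign. Ngfr was -0.149 with sham 2 alone, -0.056 with the muscle covariate and -0.094 to 0.149 without 1 library, Ret was -0.102, -0.027 and -0.027 to 0.174, Gfra3 was -0.021 with sham 2 alone, and Ntrk2 was -0.125 to 0.019 without 1 library. Ntf3 was -0.139 with the muscle covariate and -0.21 to 0.402 without 1 library, and Sdc3 was -0.004 with sham 2 alone. The cause of these changes was not tested. Gfra1 stayed between 0.331 and 0.444 and Gfra2 between -0.429 and -0.237 under every alternative run. No scaling moved the median of all genes by more than 0.1.

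The replicate numbers gave no sign of pairing. Same-numbered libraries deviated from their group means with correlations of -0.142, 0.195 and -0.16, and libraries of unlike number with -0.275 to 0.353. With 3 libraries per group such correlations cannot exclude pairing. With the replicate block 63 genes and 0 receptors were called, and Gfra1 had 0.397 (adjusted p = 0.229 in edgeR's test).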
